A study of Mus musculus with 4 samples.

Results

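The 10 transcripts described here encode the NF-κB subunits (Nfkb1, Nfkb2, Rel, Rela and Relb), the classical IκB inhibitors (Nfkbia, Nfkbib and Nfkbie) and a pair of atypical nuclear IκB proteins (Nfkbiz and Bcl3). They were taken by symbol from a count table with 23473 gene rows, and each of the 10 symbols had 1 row. The libraries are from total RNA of MIN6, a mouse insulinoma line, grown with 15% serum at 25 mM glucose. There are 2 libraries of control cells, labelled wild type, and 2 of cells with stable overexpression of TLX, the orphan nuclear receptor that Nr2e1 encodes. The comparison asks how expression changes under added TLX. The sources used here do not give the vector, the promoter that drives TLX, the number of clones or whether control cells carry an empty vector. Nothing states that libraries came from separate cultures, so p-values measure the spread between these libraries, which may be technical. For each gene that spread was estimated largely from all genes together, not from its own libraries alone.

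NF-κB proteins are transcription factors that bind DNA as dimers. In resting cells classical IκB proteins hold the dimers in the cytoplasm; signals from cytokine and pattern receptors activate the IκB kinase, which marks IκB for destruction and frees the dimer. Nfkb1 and Nfkb2 encode precursors that are cut to DNA-binding subunits, Rela, Rel and Relb carry the transactivation domains, and Nfkbiz and Bcl3 act in the nucleus as cofactors. Several of these genes are themselves targets of NF-κB, which makes feedback loops. In beta cells the pathway is best known for its activation by inflammatory cytokines.

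Gene rows held between 8136185 and 9788646 counts per library. Nr2e1 was counted 8 and 10 times in control and 338 and 281 times in the TLX libraries. Beta cell identity could not be seen in the markers: of 18 marker genes 12 were at 0 in all 4 libraries, Iapp, Nkx6-1, Neurod1 and Slc2a2 among them, and Ins1 averaged 9.0 CPM in control (CPM, the count scaled to a common library size). Some mesenchymal transcripts were abundant, with Col1a2 at 3187 CPM in control, while others were nearly absent. Col3a1 averaged 0.472, Dcn 0.147, Thy1 0.0599 and Acta2 0.0551 CPM over the 4 libraries, and Lum was at 0. The values below therefore describe cells labelled MIN6 that lack most beta cell markers. In bulk RNA, fewer cells of a type and less RNA per cell cannot be told apart.

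The stretches before the start site are shown because several of these genes are known to respond to NF-κB through κB sites near the start. RefSeq's promoter table (GRCm38.p6) held 7 of the 10 members, in 9 windows, since Nfkb2 has 3 start sites; Nfkb1, Relb and Nfkbiz had no entry. The 250 bases before each start were searched on both strands for the κB consensus and for AAGTCA, the half-site that TLX is known to bind; neither motif contains the other. The κB consensus was found in 4 of the 7 members and in 6 of the 9 windows, and in 3.9% of the 32851 windows of all genes. AAGTCA was found in 0 of the 9 windows and in 13.1% of all windows. A match is a description of these letters, and no match says only that they are not in this window. The last 120 bases before the start follow, on the gene's own strand, 5′ to 3′, with the κB matches in capitals, for Nfkb2 (first start, chr19:46304617-46304736, plus strand), Nfkbia (chr12:55492648-55492767, minus strand), Nfkbie (chr17:45555580-45555699, plus strand) and Rel (chr11:23770970-23771089, minus strand).
Nfkb2: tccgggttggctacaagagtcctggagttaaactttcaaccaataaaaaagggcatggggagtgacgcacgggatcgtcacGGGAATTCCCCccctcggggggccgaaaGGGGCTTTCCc
Nfkbia: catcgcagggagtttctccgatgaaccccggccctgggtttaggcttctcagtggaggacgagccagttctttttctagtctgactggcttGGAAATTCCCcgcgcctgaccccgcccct
Nfkbie: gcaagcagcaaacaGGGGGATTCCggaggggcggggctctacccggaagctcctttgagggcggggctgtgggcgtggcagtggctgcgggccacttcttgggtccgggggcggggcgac
Rel: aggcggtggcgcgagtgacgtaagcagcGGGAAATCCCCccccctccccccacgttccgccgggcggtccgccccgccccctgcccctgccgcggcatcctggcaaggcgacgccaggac
In Nfkb2 and Rel the capitals of 11 bases hold 2 overlapping matches, which begin 39 and 38 bases before the start in Nfkb2 and 92 and 91 in Rel. The nearer Nfkb2 match begins 11 bases, that of Nfkbia 29 bases and that of Nfkbie 106 bases before the start. The windows of Rela, Bcl3 and Nfkbib held 0 matches.

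The NF-κB subunit and IκB genes that passed the test were all lower in TLX-overexpressing cells. All 10 members had enough counts to be tested: 6 fell, 4 did not pass and 0 rose (edgeR quasi-likelihood test, adjusted p under 0.05 over 11024 genes). Among all genes tested, 9.04% fell and 7.79% rose. The genes that fell were Relb, Rel, Nfkbib, Nfkbie, Nfkbiz and Bcl3. The 4 that did not pass were Nfkb1, Nfkb2, Rela and Nfkbia, which also had log2 fold changes below 0. In all 10 both TLX libraries lay below both control libraries, as in 28.6% of all genes tested. The median log2 fold change was -0.47 over the members and 0.0 over all genes tested, of which 49.9% were below 0. In DESeq2, 3 members fell (Relb, Nfkbib and Nfkbiz), against 4.76% of the genes that it assessed. With either TLX library left out, fewer members passed in edgeR, and so did fewer of all genes tested. The log2 fold changes of all 10 members stayed below 0 in both of these fits.

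**Figure D1:**
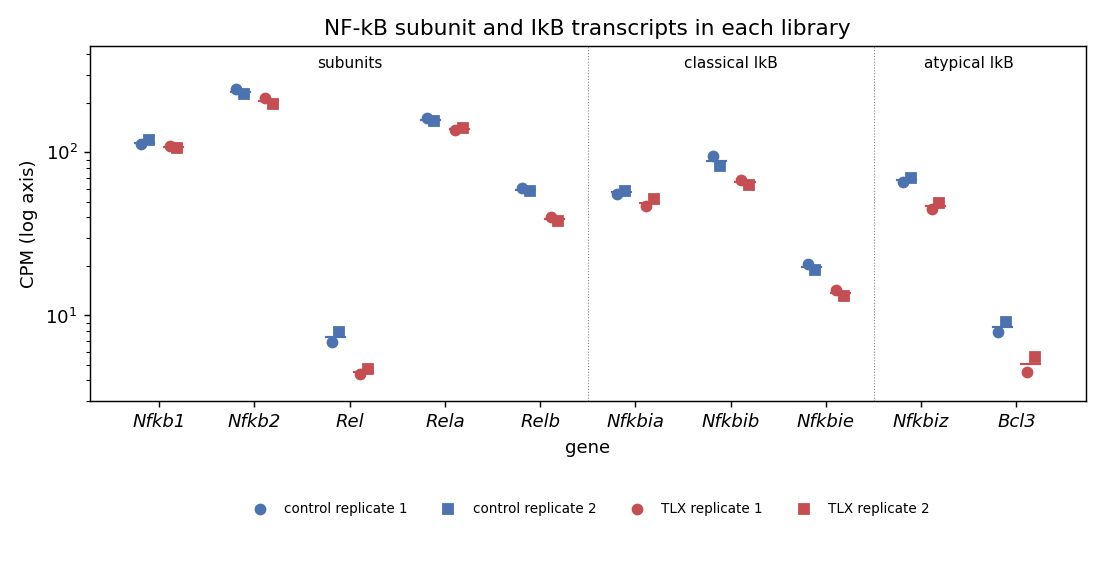
CPM of each member (log axis) in the 2 control libraries (blue) and the 2 TLX libraries (red), with circles for replicate 1, squares for replicate 2 and a short line at each group's mean. In each of the 10 genes both red points lie below both blue points, and the gap is narrow in Nfkb1 and wide in Relb, Rel and Bcl3.

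Among the subunits, Relb fell with the smallest p. Relb, the partner of the Nfkb2 product in the noncanonical pathway, stood at 60.5 and 58.0 CPM in control and at 40.0 and 37.9 CPM in the TLX libraries. The libraries of each group lay close together and the groups were far apart. The log2 fold change was -0.60 (SE 0.09), a level 34.2% lower (adjusted p = 6.39e-05). Relb passed under each alternative run, with adjusted p from 8.53e-08 to 0.00128 over the alternatives without a block.

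Rel, which encodes c-Rel, was the member with the fewest reads per length. It was counted 57 and 79 times in control and 38 and 37 times in TLX, which is 6.83 and 7.96 against 4.39 and 4.67 CPM. The groups did not overlap, and the log2 fold change was -0.71 (SE 0.21, 95% interval -1.14 to -0.28, adjusted p = 0.0194). The call rests on few reads: adjusted p was 0.109 and 0.0546 without TLX replicates 1 and 2, 0.127 without control replicate 2 and 0.236 in DESeq2 (0.00557 to 0.236 over the alternatives without a block).

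The other 3 subunit genes, Rela, Nfkb2 and Nfkb1, did not pass. Rela, which encodes the main transactivating subunit, stood at 163 and 156 CPM in control and 138 and 142 CPM in TLX. Its log2 fold change was -0.18, with a 95% interval of -0.34 to -0.02, and it did not pass (adjusted p = 0.11, but 0.0453 without control replicate 2; 0.0453 to 0.506 over the alternatives without a block). Nfkb2, the precursor gene of the noncanonical pathway, stood at 245 and 228 CPM in control and 215 and 198 CPM in TLX. The gap between its groups was no wider than the gaps within them. Its log2 fold change was -0.19, with an interval of -0.35 to -0.03 (adjusted p = 0.0931, but 0.0147 without control replicate 2; 0.0147 to 0.602 over the alternatives without a block). In the GENCODE annotation of GRCm38 Nfkb2 shares 299 bases with Psd and 1292 with the noncoding gene AC114539.1, both on the opposite strand, and Psd had a log2 fold change of 0.42 (adjusted p = 0.00529). The sources used here do not say whether counting used strand, so reads in those stretches cannot be assigned. Nfkb1, the precursor gene of the canonical pathway, stood at 112 and 119 CPM in control and 109.5 and 106 CPM in TLX. Its groups nearly touched. The annotation places Gm43430, an unnamed gene model on the same strand, over 3897 bases of its locus. Its log2 fold change was -0.10, with an interval of -0.26 to 0.07 (adjusted p = 0.449), so a fall of the size seen in Relb lay outside the interval.

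Among the classical inhibitors Nfkbib and Nfkbie fell and Nfkbia did not pass. Nfkbib, which encodes IκBβ, stood at 94.6 and 82.1 CPM in control and 68.2 and 63.3 CPM in TLX. The control libraries differed from each other by nearly as much as the nearest libraries of the groups did. The log2 fold change was -0.42 (SE 0.09, 25.3% lower, adjusted p = 0.0022, but 0.0531 without TLX replicate 2; 1.36e-06 to 0.0531 over the alternatives without a block). On the opposite strand Nfkbib shares 778 bases with Sirt2 and 718 with Ccer2 in the same annotation, and reads there cannot be assigned either. Sirt2 had a log2 fold change of -0.10 (adjusted p = 0.423).

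Nfkbie, which encodes IκBε, stood at 20.8 and 19.0 CPM in control and 14.3 and 13.1 CPM in TLX. Both groups were tight, and the log2 fold change was -0.53 (SE 0.13, 30.8% lower, adjusted p = 0.00758). The adjusted p was 0.0613 without TLX replicate 2 and 0.109 in DESeq2 (0.00143 to 0.109 over the alternatives without a block). Nfkbia encodes IκBα, the inhibitor known for its rapid resynthesis after NF-κB activation. It stood at 55.5 and 58.2 CPM in control and 47.1 and 51.5 CPM in TLX. TLX replicate 2 lay closer to control replicate 1 than to TLX replicate 1. The log2 fold change of Nfkbia was -0.21, with an interval of -0.40 to -0.02 (adjusted p = 0.126).

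Both atypical inhibitors fell. Nfkbiz, which encodes IκBζ, a nuclear cofactor needed for a subset of inflammatory genes such as Lcn2, stood at 66.1 and 69.2 CPM in control and 45.1 and 49.1 CPM in TLX. The groups were well apart, and the log2 fold change was -0.52 (SE 0.09, 30.5% lower, adjusted p = 0.000229). Like Relb, Nfkbiz passed under each alternative run (5.96e-07 to 0.0129 over the alternatives without a block). Bcl3, whose product binds homodimers of the processed precursors, was counted 66 and 91 times in control and 39 and 44 times in TLX. This is 7.91 and 9.16 against 4.51 and 5.55 CPM. The log2 fold change of -0.77 (SE 0.20, 41.5% lower, adjusted p = 0.0091) was the lowest of the 10, and its SE was close to that of Rel. On the opposite strand the annotation has the antisense genes Gm16174 and Gm16175, which share 2073 and 2264 bases with the Bcl3 locus, so antisense reads cannot be told apart from those of Bcl3. The adjusted p of Bcl3 was 0.106 without TLX replicate 1, 0.0586 without control replicate 2 and 0.15 in DESeq2 (0.00102 to 0.15 over the alternatives without a block).

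**Figure D2:**
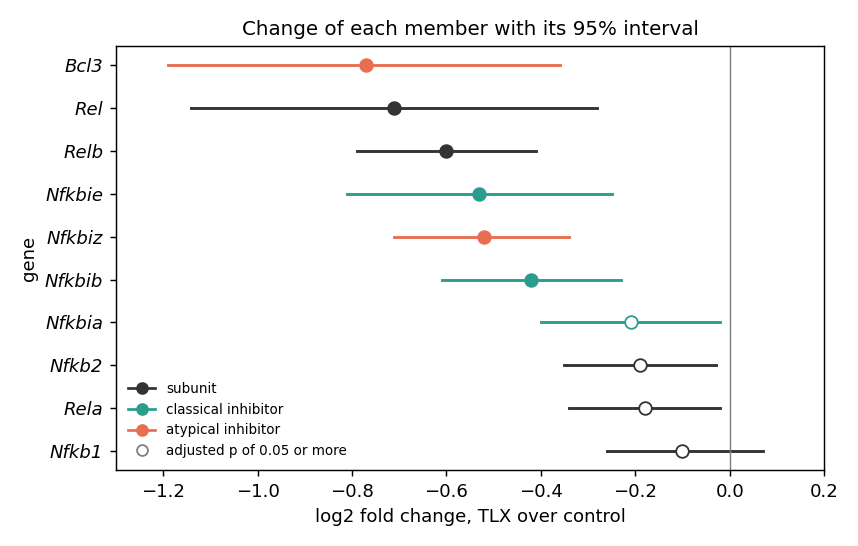
Log2 fold change of TLX over control for each member (points) with its 95% interval (lines), coloured by role; open points did not pass the test. All 10 points lie below 0, from -0.10 for Nfkb1 to -0.77 for Bcl3, and the interval of Nfkb1 crosses 0.

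The κB matches shown above were set beside the calls. Of the 4 members with a κB match, Nfkbie and Rel fell and Nfkb2 and Nfkbia did not pass. Of the 3 with an entry and 0 matches, Nfkbib and Bcl3 fell and Rela did not pass.

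Levels between genes were compared per length, as CPM per kb of the feature length in the table. In control cells the order of levels was Nfkb2 (71.7 ± 3.7, SD, n = 2), Rela (58.7), Nfkbib (45.4), Nfkbia (36.0), Nfkb1 (28.0), Relb (26.9), Nfkbiz (17.4), Nfkbie (8.24), Bcl3 (4.65) and Rel (2.86 ± 0.31 CPM per kb). Nfkb1 and Relb overlapped between libraries, and no other neighbours did. In TLX cells the order was the same, but there Nfkbib (33.8 ± 1.8) and Nfkbia (31.2 ± 2.0 CPM per kb) overlapped, and Relb (17.7) lay apart from Nfkb1 (26.2 CPM per kb). Over the 4 libraries Nfkb2 and Rela had levels per length above those of 90.2% and 87.8% of the genes tested, and Rel above 16.3%.

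Relb and Rel took smaller shares of the subunit transcripts in TLX cells. Relb took 14.3% of the summed subunit level per length in each control library and 11.2% and 10.9% in the TLX libraries. Rel took 1.38% and 1.66% in control and 1.04% and 1.15% in TLX. Neither share overlapped between groups. The share of Nfkb2 did overlap, at 38.8% and 37.4% in control and 40.1% and 38.2% in TLX. The level of Rela per length was 2.18 times that of Relb in each control library and 2.81 and 3.05 times in the TLX libraries. That of Nfkb2 was 2.70 and 2.62 times Relb in control and 3.59 and 3.50 times in TLX. The summed subunit level was 192 and 185 CPM per kb in control and 163 and 157 CPM per kb in TLX, a lower sum in both TLX libraries.

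The summed inhibitors were lower too. The classical inhibitors summed to 92.4 and 86.9 CPM per kb in control and 70.8 and 70.6 CPM per kb in TLX. Subunits stood at 2.07 and 2.13 times the classical inhibitors in control and at 2.30 and 2.23 times in TLX, so the ratio of transcripts was slightly higher in both TLX libraries. Nfkbia stood at 2.06 and 2.07 times Nfkbiz in control and at 2.56 and 2.58 times in TLX. The ratio of Nfkbia to Nfkbib overlapped between groups, at 0.722 and 0.874 in control and 0.85 and 1.0 in TLX. That of Nfkb1 to Nfkb2 overlapped too, at 0.365 and 0.418 in control and 0.407 and 0.43 in TLX. For each share and ratio given here whose groups do not overlap, the exact two-sided permutation test gave p = 0.333, the smallest that 2 libraries against 2 allow, so none of these differences could pass.

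**Figure D3:**
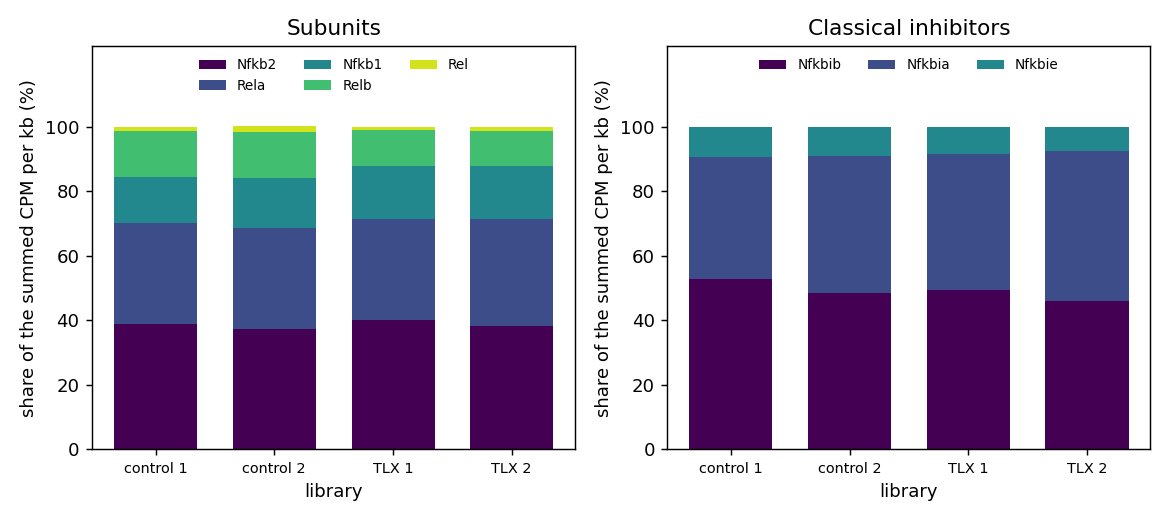
Share of each transcript in the summed CPM per kb of the 5 subunits (left) and the 3 classical inhibitors (right), in percent, 1 stacked bar per library. Relb narrows from 14.3% in both control bars to 11.2% and 10.9% in the TLX bars, while the shares of Nfkbib and Nfkbia overlap between groups.

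Genes whose profile came nearest to the subunit gene of smallest p (Relb) and to the inhibitor gene of smallest p, classical or atypical (Nfkbiz), were found by the root mean square distance of log2 CPM, centred on the control mean, over the 4 libraries. Among 9643 other genes averaging at least 5 CPM, Stambpl1 (0.014), Ascc2 (0.017) and Parp8 (0.021 log2 units) were nearest to Relb. Clcn3 (0.0026), Ube2w (0.018) and Zfp213 (0.018 log2 units) were nearest to Nfkbiz. Clcn3 stood at 64.3 and 67.1 CPM in control and 43.7 and 47.6 CPM in TLX, close to Nfkbiz in every library. With 4 libraries such likeness is a description only.

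Of 51 ligand, receptor, adaptor, ubiquitin ligase and kinase genes tested, 12 passed (23.5%), 9 lower and 3 higher, while 16.8% of all genes tested passed. Of 33 ligands and receptors 13 were tested; 7 did not pass, 4 fell and 2 rose, with a median log2 fold change of -0.03. The share that fell was 30.8%, which is 4 of 13 genes, against 9.04% of all genes tested. In DESeq2 1 of the 13 fell. The cytokine genes Tnf and Il1b were at 0 counts in all 4 libraries, which allows up to 0.302 to 0.379 CPM each (3 counts, counting error only); both were chosen after their values were seen. Tnfrsf12a, the receptor of TWEAK and an activator of the noncanonical pathway, stood at 871 and 793 CPM in control and 536 and 528 CPM in TLX. Its groups were far apart, and its log2 fold change was -0.64 (adjusted p = 4.63e-06). The intracellular sensor gene Nod1 rose from 8.88 ± 0.54 to 14.3 ± 0.8 CPM (SD, n = 2; adjusted p = 0.00309, but 0.066 in DESeq2). The receptor genes Il1r1 and Tlr4 also fell, with log2 fold changes of -0.5 and -0.46 (adjusted p of 0.0252 and 0.0268). In DESeq2 neither passed (0.195 and 0.201), and both were chosen after their values were seen. The co-stimulatory receptor gene Tnfrsf9 had a log2 fold change of -0.36 and Il1rap, the gene of an interleukin receptor accessory protein, one of 0.66. Both passed (adjusted p of 0.0194 and 0.0198), but not without TLX replicate 2 (0.382 and 0.154), and Il1rap not without control replicate 1 either (0.0757).

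Of 23 adaptors and ubiquitin ligases 20 were tested; 3 fell, 0 rose (0 also in DESeq2, in which 0 fell) and 17 did not pass, with a median of 0.01. Those that fell were 15.0% of the 20, against 9.04% of all genes tested. At an unadjusted p under 0.05, 1 had a higher level and 3 a lower one. Traf2, an adaptor of tumour necrosis factor receptors, had a log2 fold change of -0.38, Bcl10 of -0.31 and the Toll receptor adaptor gene Myd88 of -0.29 (adjusted p of 0.00826, 0.0133 and 0.0403). Without TLX replicate 2 none of the 3 passed (0.0513, 0.267 and 0.465). Traf2 did not pass without TLX replicate 1 (0.054) or control replicate 1 (0.0616), and Myd88 not without control replicate 1 (0.121). Traf5 had a log2 fold change of 0.57 and did not pass (adjusted p = 0.126).

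Of 19 kinases and their partners 18 were tested. Of these 15 did not pass, 2 fell and 1 rose, with a median of 0.0. Those that fell were 11.1% of the 18, against 9.04% of all genes tested. In DESeq2 1 of the 18 fell (Irak2) and 0 rose, and Irak4 and Ikbke did not pass (adjusted p of 0.178 and 0.208). The genes of the IκB kinase itself did not pass: the difference in Chuk was -0.25, in Ikbkb 0.03 and in Ikbkg -0.03 on the log2 scale (adjusted p of 0.122, 0.854 and 0.868). These 3 were chosen after their values were seen. Irak2, a kinase of interleukin and Toll receptor signalling, stood at 39.3 and 37.7 CPM in control and 26.0 and 26.9 CPM in TLX and fell by 0.54 (adjusted p = 0.000764). Its relative Irak4 had a log2 fold change of 0.37 (adjusted p = 0.0194, but 0.199 without TLX replicate 1). Ikbke had one of -0.53 (adjusted p = 0.0198, but 0.231 without TLX replicate 1 and 0.0651 without control replicate 2). Tbk1, the closest relative of Ikbke, had 0.27 and did not pass (adjusted p = 0.0559). 

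Of 20 other negative regulators 19 were tested. Of these 4 fell, 1 rose and 14 did not pass, with a median of -0.06. Those that fell were 21.1% of the 19, against 9.04% of all genes tested. In DESeq2 3 of the 19 fell and 0 rose. Tnfaip3, which encodes the ubiquitin-editing enzyme known as the product of an NF-κB target gene that ends signalling, stood at 44.8 and 45.7 CPM in control. In TLX it stood at 25.7 and 29.1 CPM, well below, and fell by 0.73 (SE 0.10, adjusted p = 2.48e-05). Rnf11, a partner of that enzyme, fell from 80.8 ± 3.5 to 55.9 ± 1.5 CPM (SD, n = 2; adjusted p = 0.000127). Tollip and Sigirr, inhibitors of Toll and interleukin receptor signalling, had log2 fold changes of -0.35 and -0.41 (adjusted p of 0.00211 and 0.00667). Without TLX replicate 2 these were 0.0955 and 0.127. The gene that rose was N4bp1 (0.35, adjusted p = 0.0138, but 0.109 in DESeq2). Nfkbid, another atypical IκB gene, had -0.08 and did not pass (adjusted p = 0.858). Both were chosen after their values were seen.

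Genes reported elsewhere as NF-κB targets were lower. Of 50 listed, 32 were tested; 19 fell, 0 rose and 13 did not pass. At an unadjusted p under 0.05, 19 were lower and 1 higher, and in DESeq2 16 fell and 1 rose. The share that fell was 59.4%, against 9.04% of all genes tested, and the median log2 fold change was -0.60, against 0.0. The chemokine gene Cxcl1 stood at 149 and 150.2 CPM in control and 39.8 and 36.6 CPM in TLX. The groups did not overlap, and its log2 fold change was -1.97, more than that of any member (adjusted p = 3.97e-13). Ptgs2, the inducible cyclooxygenase gene, fell from 516 ± 43 to 193 ± 16 CPM, and the monocyte-attracting chemokine gene Ccl2 from 89.2 ± 12.4 to 44.0 ± 1.4 CPM (adjusted p of 5.11e-11 and 1.14e-07). Myc, a growth regulator with many other inputs, had a log2 fold change of -1.49 (adjusted p = 6.61e-12). Not every well known target was lower: Sod2 and Bcl2l1 each had a log2 fold change of 0.01 and B2m one of 0.04, and none of these passed (adjusted p of 0.953, 0.974 and 0.809). These 3 were chosen after their values were seen. The list was compiled with earlier results of these libraries known and is no independent evidence of its direction.

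**Figure D4:**
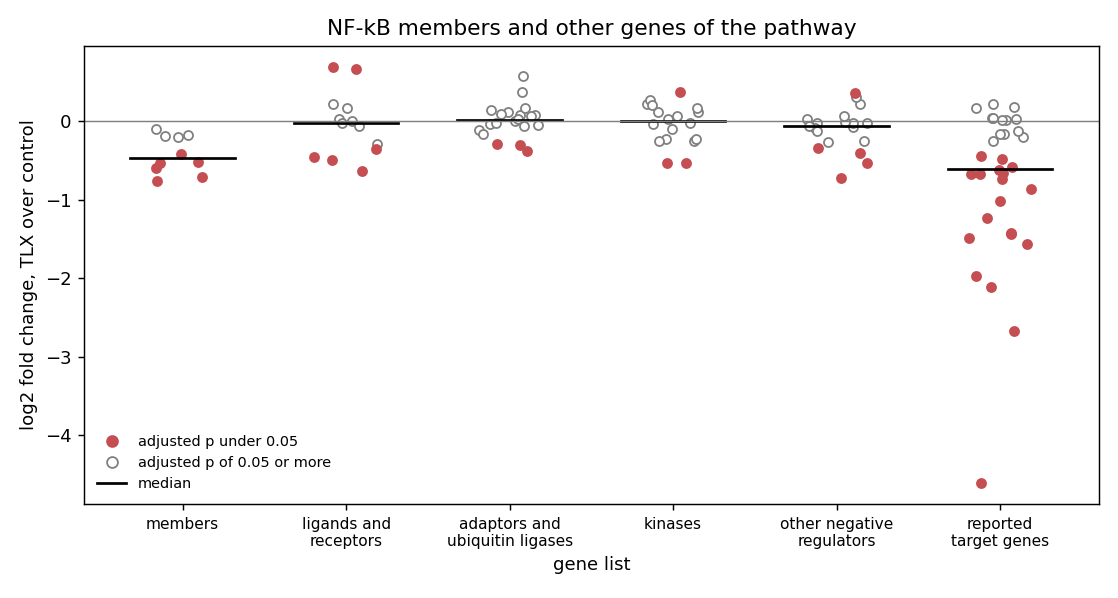
Log2 fold change of TLX over control for the 10 members and the tested genes of 5 pathway lists; filled red points passed the test, open points did not, and black lines are medians. The medians of the upstream lists and of the other negative regulators lie between -0.06 and 0.01, while those of the members (-0.47) and the reported targets (-0.60) lie below; the lowest point is Il6, chosen after its values were seen and fitted on 1 and 0 counts in TLX, and the median is -0.60 also with Il6 at its bound.

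Leukocytes carry much Rel and Bcl3, so their markers were read beside the members. Of 18 leukocyte markers 4 were tested, 1 fell (Cd68, log2 fold change -0.53, adjusted p = 0.000391) and 0 rose (0 in DESeq2, and 0 higher at an unadjusted p under 0.05). Their summed level was 124 CPM in each control library and 105 and 106 CPM in TLX. Within this sum Cd68 averaged 63.7 CPM in control and 44.3 CPM in TLX. Cd14 averaged 39.6 and 42.5 CPM, Lyz2 17.3 and 16.7 CPM and Coro1a 1.83 and 1.26 CPM, and none of these passed. The defining marker Ptprc averaged 0.087 CPM, and Adgre1, Fcer1g and Ms4a1 were at 0 in all 4 libraries. The mesenchymal markers summed to 7819 and 7419 CPM in control and 8292 and 7960 CPM in TLX. Of 7 tested 1 rose and 2 fell. Col1a2 rose from 3187 to 3859 CPM (adjusted p = 0.0434), while Fn1 fell from 994 to 586 CPM (adjusted p = 4.34e-07). Pdgfrb fell from 12.9 to 7.72 CPM (adjusted p = 0.00647, but 0.079 in DESeq2). The endothelial markers summed to between 2.15 and 3.82 CPM, with Cldn5 and Emcn at 0. The part of these transcripts in the result was not tested.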

How the data were processed

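RNA-seq counts of 2 control and 2 TLX libraries were used. The authors deposited raw read counts per feature beside a feature length, with no normalization, per the file headers. TopHat2 2.0.13 and the genome build mm9 are named in the submitters' processing notes; the sources used here do not give the counting program, annotation, use of strand or handling of multiple matches. The rows of FANTOM3 cDNA clones, 23.3% to 25.1% of the counts per library, entered neither library sizes nor tests; none lay within 2% of a member in all 4 libraries. Libraries of one group differed by more than sampling noise (median chi-square 1.13 and 0.924, against 0.455 for noise).

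After filterByExpr (minimum count 10) and TMM scaling, gene rows entered edgeR's quasi-likelihood test (residual degrees of freedom 2) with Benjamini-Hochberg adjustment at 0.05 over 11024 genes. The prior degrees of freedom had a median of 20.6, so each gene's variance leaned mostly on the trend over all genes. The SE is the log2 fold change divided by the square root of F. edgeR 4.0.16, DESeq2 1.42.0 and limma 3.58.1 ran in R 4.3.3. On counts simulated over 11024 genes for TLX against control, edgeR called 10 of 50 genes with a 1.25-fold change and 38 of 50 with 1.5-fold. It called 42 of 50 with 2-fold, 48 of 50 with 4-fold and 4 of 10742 without change. The simulated counts were drawn from the dispersion trend of this same fit, with no spread of single genes about it. The number of false calls holds for that setting only.

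The members and lists were chosen with earlier results of these data known. The genes named are Nr2e1, the members, up to 4 genes of smallest p per pathway list, the 3 nearest profiles and cell type markers; others are said to be chosen after their values were seen. Promoters were matched by symbol. Alternatives were other size factors, total counts, other filters, limma-voom, DESeq2, a block for the replicate number, leaving out each library, adding clone rows and leaving out Rn45s and Lars2.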

Additional observations from a re-analysis of the deposited data

How the results depend on the processing

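Each member kept a log2 fold change below 0 under each alternative run that could give its value; Rel and Bcl3 have none at a filter of 10 CPM, where 4 members fell. Of 128 values of members, 113 kept their side of the threshold, 10 lost the call and 5 gained it. In DESeq2, 355 genes rose and 484 fell, and 3 members fell; of the lists, 0 ligands and receptors rose and 1 fell, 0 adaptors fell, 0 kinases rose and 1 fell, 0 other negative regulators rose and 1 target rose. That target also rose in limma-voom, without a filter and without Rn45s and Lars2 (1 each). At a filter of 10 CPM, 1 ligand or receptor rose.

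Leaving out each library in turn, 388 to 993 genes rose and 585 to 1060 fell, and 3 to 6 members fell. Ligands and receptors that rose numbered 1 to 2 and those that fell 2 to 4; adaptors 0 to 1 and 0 to 3; kinases 0 to 1 and 1 to 4; other negative regulators 0 to 1 and 2 to 6; targets 0 to 1 and 18 to 20. The lone library left in a group is assumed to vary like the other group. The cause of these differences was not tested.

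With the replicate number as a block, 9 members fell (Nfkb1 did not pass), 1495 genes rose and 1487 fell, 3 kinases rose and 4 fell, 2 other negative regulators rose and 1 target rose. Deviations of libraries with the same number correlated at 0.108 over genes, but nothing in the labels says that a number marks a shared culture or day. Rel and Bcl3, at 37 to 91 counts per library, are the members that depth limits most.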
